A study of Mus musculus with 4 samples.

Results

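A set of 10 genes that define the surfactant system and the alveolar type 2 cell was followed through ribosome footprint counts of MLE-12 cells: Sftpc, Sftpb, Sftpa1, Sftpd, Abca3, Lamp3, Nkx2-1, Slc34a2, Etv5 and Cebpa. They were chosen by Ensembl ID, and all 10 IDs have a line among the 53465 of the count table. In the order given, the IDs are ENSMUSG00000022097, ENSMUSG00000056370, ENSMUSG00000021789, ENSMUSG00000021795, ENSMUSG00000024130, ENSMUSG00000041247, ENSMUSG00000001496, ENSMUSG00000029188, ENSMUSG00000013089 and ENSMUSG00000034957. MLE-12 is a mouse lung epithelial line whose founding transgenic mice carried the SV40 large T antigen under a human SFTPC promoter, and the submitters use it as an alveolar type 2 model. Exposed cells received 5 µM 1-nitropyrene, a nitrated polycyclic hydrocarbon of diesel exhaust, for 12 h (replicates 2 and 3), and the control cells were cultured without it (replicates 1 and 2). Both groups are the same line, and both were washed with cycloheximide, which holds ribosomes on the mRNA. The labels do not say whether the libraries of a group stem from different cultures. The p-values therefore cover the spread among these 4 libraries, which may be technical. The main test (edgeR) took that spread as shared among genes, not from each gene's own replicates.

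Pulmonary surfactant is a film of phospholipid and protein that lowers surface tension in the alveolus. Alveolar type 2 cells make its lipids, load them with the proteins SP-B and SP-C into lamellar bodies, and secrete them, while the collectins SP-A and SP-D bind microbes. The homeodomain factor NKX2-1 switches on the surfactant genes in lung epithelium, together with other factors that include C/EBPα and, downstream of FGF signalling, the ETS factor ETV5.

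The 1-nitropyrene libraries held 1243186 and 1357034 footprint counts and the control libraries 1261372 and 1136145. Counts were scaled by TMM to CPM (counts in a library of 1e6), and 1 count was worth 0.761 to 0.860 CPM. Where a library has a count of 0, the level can still be as high as 3 counts, or 2.28 to 2.58 CPM, a limit that covers counting error only. A footprint level follows both the amount of mRNA and its occupancy by ribosomes; RNA libraries are not analysed here, and translational efficiency is not given.

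Of the 10 genes, 6 had no footprint at all. Sftpc, Sftpb, Sftpa1, Sftpd, Nkx2-1 and Slc34a2 were at 0 in both 1-nitropyrene libraries and in both control libraries, out of 4997737 counts in all. The other 4, Cebpa, Abca3, Etv5 and Lamp3, had footprints in all 4 libraries. For scale, 25.7% of all IDs of the table had a count in any library and 19.1% had one in every library, but Ensembl IDs also cover non-coding genes and pseudogenes, so these shares are a loose yardstick. The use of the line as an alveolar type 2 model was thus not borne out, at this depth, by footprints of the defining surfactant genes or of Nkx2-1. The 4 genes with footprints belong to the same list. Whether a smaller share of cells or less mRNA per cell underlies a low level cannot be told apart in bulk libraries.

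**Figure D1:**
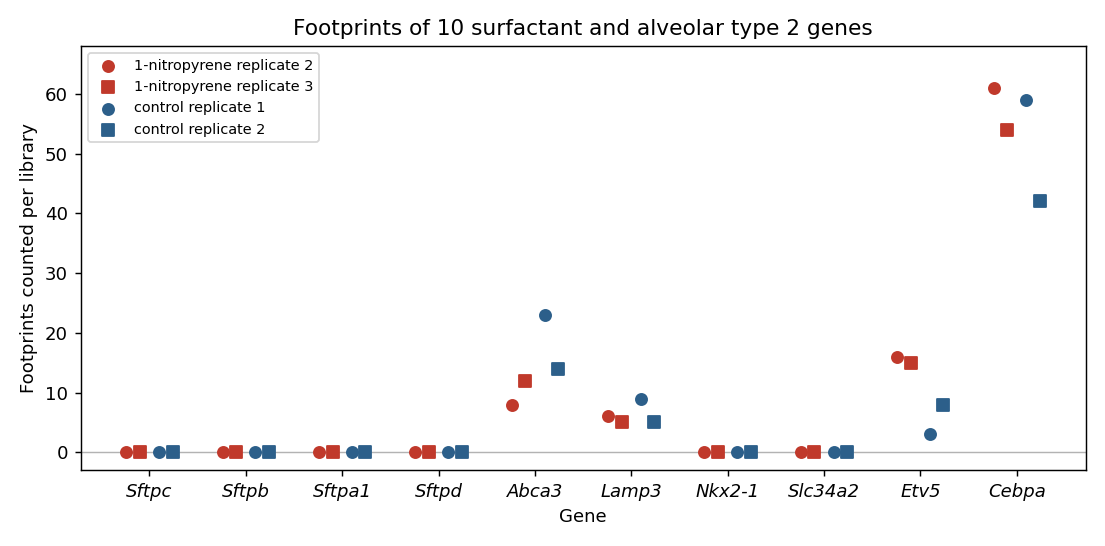
Footprint counts (vertical axis, reads per library) of the 10 genes (horizontal axis) in the 1-nitropyrene libraries (red) and the control libraries (blue), 1 point per library. The 6 genes without footprints lie at 0 in every library, and Cebpa has 42 to 61 counts in each.

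All 4 surfactant protein genes were among those without footprints. Sftpc encodes the hydrophobic protein found in adult lung almost only in type 2 cells, and Sftpb the protein without which lamellar bodies do not form properly. Sftpa1 and Sftpd encode the collectins. On assembly GRCm38.p6 they lie at chr14:70520941-70524081, chr6:72304610-72314373, chr14:41131788-41136373 and chr14:41172212-41185198, in the order just given. The upper end of the exact 95% Poisson interval on a group total of 0 was 1.52 CPM in 1-nitropyrene cells and 1.48 CPM in control cells for each of them, so levels below that are not excluded by these counts. No fold change can be given, since both groups were at 0.

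The lamellar body and transport genes divided. Slc34a2, the phosphate transporter of the apical membrane (chr5:53049353-53071664), was at 0 in all libraries. Abca3, the transporter that moves phospholipid into lamellar bodies (chr17:24351921-24410204), was read in every library. It had 8 and 12 counts in 1-nitropyrene libraries 2 and 3, against 23 and 14 in control libraries 1 and 2. Both 1-nitropyrene libraries lay below both controls, and the nearest pair, 12 and 14 counts, differed by 2 counts. Abca3 averaged 8.19 ± 1.85 CPM in 1-nitropyrene cells and 14.6 ± 4.02 CPM in control cells (SD, n = 2 each). The fold change was 0.562 (log2 fold change -0.83 ± 0.49 SE) and did not pass the test (edgeR quasi-likelihood, Benjamini-Hochberg adjusted p = 0.244 over 7719 genes).

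Lamp3, a lysosome-related membrane glycoprotein that marks lamellar bodies (chr16:19653381-19706365), was sparse. Its counts were 6 and 5 in the 1-nitropyrene libraries and 9 and 5 in the control libraries, so the groups overlapped. The levels were 4.56 ± 0.850 CPM in 1-nitropyrene cells and 5.53 ± 1.86 CPM in control cells (SD, n = 2 each). Lamp3 did not pass the filter on low counts. In a fit without that filter its fold change was 0.827, with a 95% interval of 0.313 to 2.19 (adjusted p = 0.865, edgeR), which leaves room for a change of more than 2-fold in either direction. Its sign turned when control replicate 1 was left out (log2 fold change 0.12).

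The 3 transcription factors also differed among themselves. Nkx2-1 (chr12:56531935-56536908) was at 0 in all 4 libraries, like the surfactant protein genes it is known to activate. Cebpa (chr7:35119293-35121928), a leucine zipper factor of type 2 cell maturation that also acts in liver, fat and myeloid cells, carried most of the counts of the 10 genes. It had 61 and 54 counts in the 1-nitropyrene libraries and 59 and 42 in the control libraries. The groups overlapped, at 47.6 ± 6.87 CPM in 1-nitropyrene cells and 40.2 ± 6.68 CPM in control cells (SD, n = 2 each). The fold change was 1.18 with a 95% interval of 0.836 to 1.66 (edgeR, adjusted p = 0.569). A rise above 1.66-fold or a drop below 0.836 of the control level lies outside that interval. The DESeq2 Wald test gave Cebpa a wider one, 0.691 to 2.06.

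Etv5 (chr16:22381313-22439570), an ETS factor that responds to FGF signals and is needed to keep type 2 cells in their state, had the largest fold difference of the 4 genes with footprints. It had 16 and 15 counts in 1-nitropyrene libraries 2 and 3, against 3 and 8 in control libraries 1 and 2. The 1-nitropyrene libraries were close to each other and both lay above the controls, which were farther apart. The levels were 12.8 ± 1.33 CPM in 1-nitropyrene cells and 4.52 ± 3.16 CPM in control cells (SD, n = 2 each). The fold change was 2.85 with a 95% interval of 1.30 to 6.27 (log2 fold change 1.51 ± 0.58 SE). The DESeq2 Wald test gave a wider interval that spans no change, 0.802 to 10.4. Etv5 did not pass the threshold over all genes tested (edgeR, unadjusted p = 0.00902, adjusted p = 0.0516). Without control replicate 1 the fold change was 1.88, and without control replicate 2 it was 5.44, so its size rests on which control library is used. Without 1-nitropyrene replicate 2 the fold change was 2.67, and without 1-nitropyrene replicate 3 it was 3.07. Etv5 passed the filter through its 1-nitropyrene libraries alone, as neither control library reached the 7.99 CPM that the filter asks of 2 libraries. Abca3 reached it in 2 control libraries and in 1 1-nitropyrene library, so its 1-nitropyrene libraries alone would not have passed it.

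Of the 10 genes, 3 could thus be tested, and 0 were called at an adjusted p under 0.05, against 17.3% of all 7719 genes tested (9.68% higher, 7.58% lower). At an unadjusted p under 0.05 the same fit had 29.9% of all genes tested and, of the 3, Etv5; since Etv5 entered the test only through the group where it is high, nothing is read from this tally. Without the filter, 0 of the 4 genes with footprints were called, against 8.52% of 13738 genes. The limma-voom test also called 0. DESeq2's Wald test left all 4 genes without an adjusted p, and its unadjusted p for Etv5 was 0.105. Likewise as a description, for 2 of the 3, Etv5 and Abca3, the CPM of the groups did not overlap, against 57.3% of all genes tested. The median log2 fold change of the 3 was 0.24, the value of Cebpa, beside -0.0076 over all genes tested. Nothing is read from that median either, as Etv5 is among the 3.

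**Figure D2:**
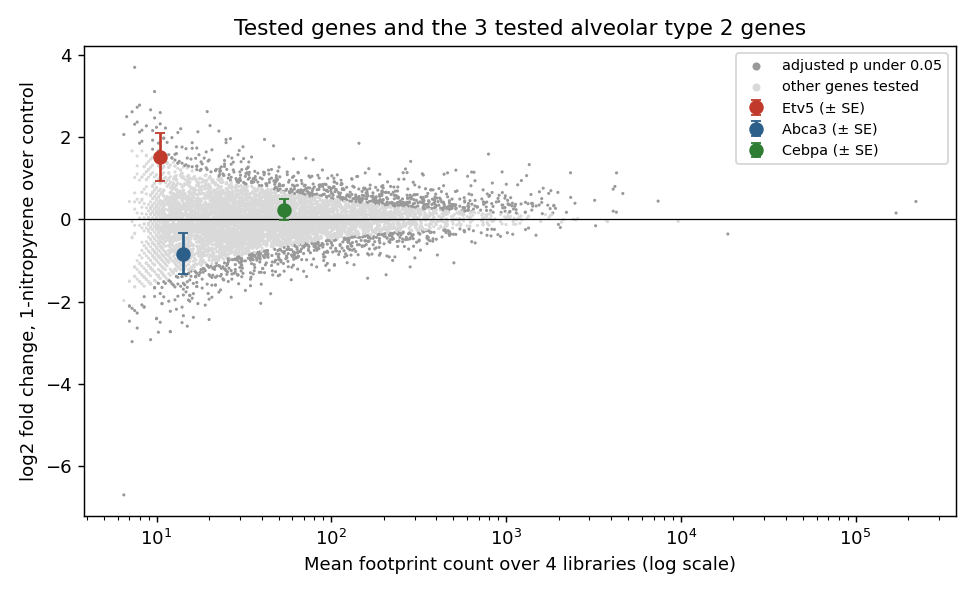
Mean footprint count over the 4 libraries (horizontal axis, log scale) against log2 fold change, 1-nitropyrene over control (vertical axis), for the 7719 genes tested; dark grey points had an adjusted p under 0.05, and error bars on Etv5, Abca3 and Cebpa are SE. Etv5 and Abca3 lie at the low-count end, where only large differences were called.

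Where counts were lower, the smallest difference called was larger. Each tested gene was set beside the 200 other tested genes nearest to it in mean count. Around Etv5 (mean counts 10.25 to 11), 13 of 200 genes were called, or 6.50%, and the smallest called change was 2.94-fold, just above the 2.85-fold of Etv5. Around Abca3 (mean counts 13.75 to 14.75), 17 were called, the smallest at 2.48-fold, and 50 of the 200 neighbours changed by more than Abca3. Around Cebpa (mean counts 51.75 to 56.25), 17 were called, the smallest at 1.60-fold, and 110 changed by more than Cebpa.

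Direction and call of the 3 tested genes were the same in the 9 alternatives that gave an adjusted p. The log2 fold change of Etv5 ran from 0.91 to 2.44 (adjusted p 0.0507 to 0.497), that of Abca3 from -1.09 to -0.52 (adjusted p 0.136 to 0.732) and that of Cebpa from 0.072 to 0.42 (adjusted p 0.450 to 0.898). On total counts the median of all genes tested was -0.17, and Etv5 stood at 1.35 and Cebpa at 0.072. Abca3 then had a fold change of 0.501 and an unadjusted p of 0.0412 (edgeR, adjusted p = 0.136).

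**Figure D3:**
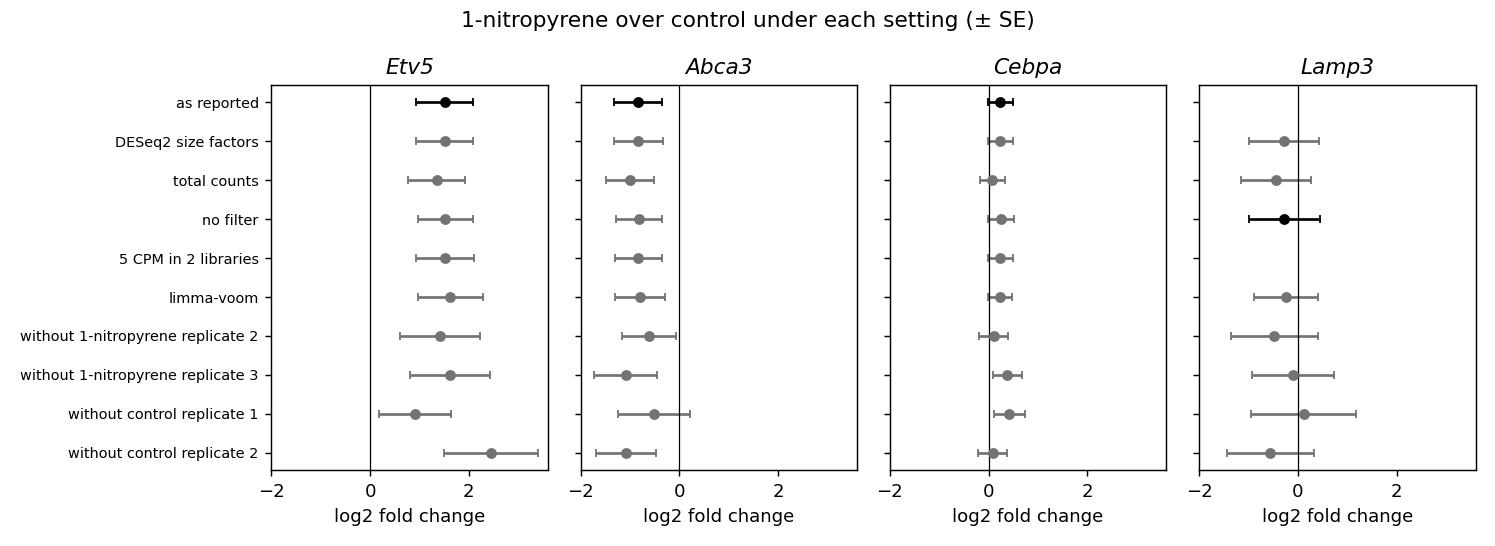
Log2 fold change, 1-nitropyrene over control (horizontal axes), of the 4 genes with footprints under each setting (rows); bars are SE and black marks the reported value. Etv5 stays above 0 and Abca3 below 0 in every setting shown, while Lamp3 lies on either side of 0.

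Summed over the 10 genes, the libraries held 91 and 86 counts in 1-nitropyrene cells and 94 and 69 in control cells. This was 73.2 ± 7.20 CPM in 1-nitropyrene cells and 64.8 ± 9.39 CPM in control cells (SD, n = 2 each). The difference of 8.36 CPM was less than the SD of the controls and more than that of the 1-nitropyrene libraries. Cebpa made up 67.0% and 62.8% of the sum in the 1-nitropyrene libraries and 62.8% and 60.9% in the control libraries. Without Cebpa the sum was 25.6 ± 0.331 CPM in 1-nitropyrene cells and 24.7 ± 2.72 CPM in control cells. On total counts the sum without Cebpa turned, to 23.9 ± 0.389 CPM in 1-nitropyrene cells and 25.8 ± 2.82 CPM in control cells. On either scale the difference without Cebpa was less than the SD of the controls and more than that of the 1-nitropyrene libraries.

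The promoters of the genes are shown because the absent surfactant genes and the genes with footprints can be set side by side there. Of the 10 genes, 8 have an entry among the RefSeq promoters of GRCm38.p6, and Etv5 has 2 starts; Sftpc and Sftpd were not matched. The 250 bases before the start are given 5′ to 3′ on the strand of the gene, for 2 surfactant protein genes without footprints and for the 3 genes with the most footprints. For Abca3 the start listed with the promoters lies inside the gene span given above, so the end of its window overlaps that span. Capitals mark CTCAAG, a core of sites bound by NKX2-1, and TATAA, the core of a TATA box, searched on both strands. They stand at chr6:72304360-72304609 (plus strand) for Sftpb, chr14:41131538-41131787 (plus) for Sftpa1, chr17:24351773-24352022 (plus) for Abca3, chr7:35119043-35119292 (plus) for Cebpa and chr16:22439571-22439820 (minus) for Etv5.
Sftpb: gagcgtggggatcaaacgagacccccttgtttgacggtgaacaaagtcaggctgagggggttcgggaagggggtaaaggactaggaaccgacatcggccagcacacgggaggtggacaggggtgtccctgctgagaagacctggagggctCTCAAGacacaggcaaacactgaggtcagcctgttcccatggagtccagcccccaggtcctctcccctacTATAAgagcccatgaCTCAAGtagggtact
Sftpa1: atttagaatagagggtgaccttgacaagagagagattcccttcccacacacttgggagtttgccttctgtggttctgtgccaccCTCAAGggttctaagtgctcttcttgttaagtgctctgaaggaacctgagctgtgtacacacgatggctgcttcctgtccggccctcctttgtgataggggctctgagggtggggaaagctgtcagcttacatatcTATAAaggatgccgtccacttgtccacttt
Abca3: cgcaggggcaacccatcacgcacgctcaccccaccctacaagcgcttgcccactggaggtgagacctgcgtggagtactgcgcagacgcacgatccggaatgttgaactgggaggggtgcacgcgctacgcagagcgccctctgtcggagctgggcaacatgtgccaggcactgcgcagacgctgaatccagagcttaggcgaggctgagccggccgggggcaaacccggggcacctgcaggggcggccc
Cebpa: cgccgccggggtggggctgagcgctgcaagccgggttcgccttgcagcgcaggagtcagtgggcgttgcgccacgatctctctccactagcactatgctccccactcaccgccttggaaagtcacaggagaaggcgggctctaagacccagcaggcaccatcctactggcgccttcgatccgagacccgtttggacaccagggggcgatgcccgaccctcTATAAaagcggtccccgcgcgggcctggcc
Etv5: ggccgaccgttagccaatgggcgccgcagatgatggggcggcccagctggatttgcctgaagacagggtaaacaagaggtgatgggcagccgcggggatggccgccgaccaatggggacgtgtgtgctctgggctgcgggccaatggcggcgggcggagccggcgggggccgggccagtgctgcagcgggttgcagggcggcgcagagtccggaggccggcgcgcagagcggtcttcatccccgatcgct

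CTCAAG was found in the promoters of Sftpb and Sftpa1 and in no other of the 9 member promoters; 13.3% of 32841 promoters of the same length hold it. In Sftpb it begins 100 and 15 bases before the start, and in Sftpa1 166 bases before it. TATAA begins 30 bases before the start in Sftpb, Sftpa1 and Cebpa, and 22.8% of all promoters hold it somewhere. TTGCNNAA, a core of C/EBP sites, was found in Slc34a2, at 1 place that reads the same on both strands (9.57% of all promoters), and GGAAGT, an ETS core, before the second start of Etv5 (19.7% of all promoters). None of the 4 motifs was found in the promoters of Abca3, Lamp3 and Nkx2-1 or before the first start of Etv5. These matches describe letters and are not evidence of binding.

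Base composition did not divide the genes cleanly. The member promoters held 0 to 28 CpG dinucleotides, against a median of 6 over all promoters (quartiles 2 and 16). Abca3, Cebpa and the first start of Etv5, all with footprints, held 21, 22 and 27, and more than 83.7%, 85.2% and 91.4% of all promoters. Sftpa1, Sftpb and Nkx2-1, all without footprints, held 3, 7 and 9. Slc34a2, without footprints, held 28, and Lamp3, with footprints, held 0, so each lay among the genes of the other kind.

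**Figure D4:**
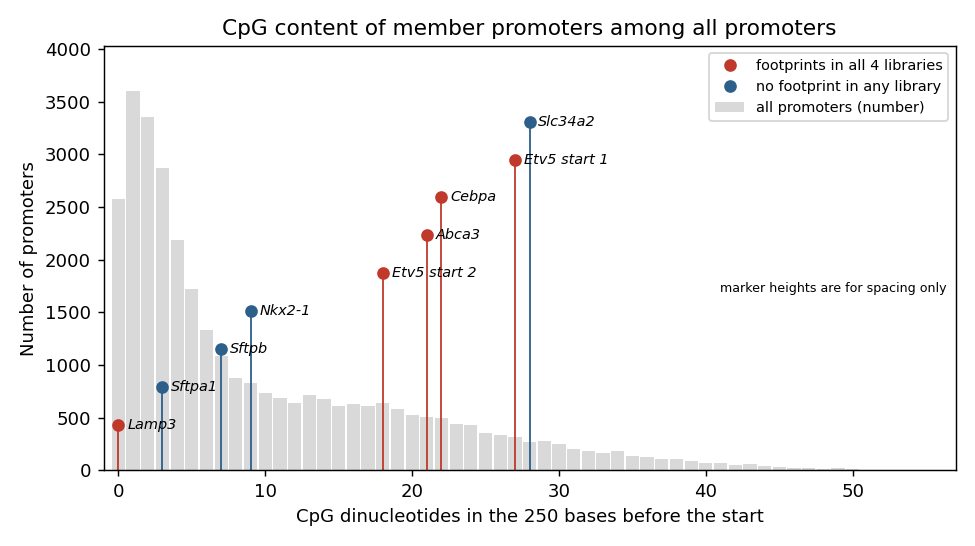
Number of CpG dinucleotides in the 250 bases before the start (horizontal axis) for all 32841 promoters (grey bars, number of promoters on the vertical axis) and for the 9 member promoters (markers, at heights chosen for spacing only). Red markers had footprints in all 4 libraries and blue markers in none; Slc34a2 at 28 and Lamp3 at 0 lie apart from the others of their colour.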

How the data were processed

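Ribosome footprints were sequenced from 2 1-nitropyrene and 2 control libraries of MLE-12 cells. The authors deposited 1 table of whole-number counts per Ensembl mouse gene ID, not normalized. The submitters' processing notes name featureCounts, HISAT2, Bowtie, cutadapt and DESeq2 as tools and mm10 as the build. The sources used here do not give their settings, the annotation, or the treatment of strand, of fragment length and of reads matching several genes, so counts of overlapping or near-identical genes are uncertain.

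The table pairs no symbols with its IDs and the RefSeq table used here gives an Ensembl ID for 0 genes. The 10 symbols follow the list of IDs by which the genes were chosen; other alveolar gene lists and cell type markers are not analysed here. The members and lists were chosen with earlier results of these data known.

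Genes were filtered with filterByExpr (minimum count 10, minimum total 15), scaled by TMM and tested with edgeR 4.0.16 (R 4.3.3, quasi-likelihood F test, no covariates), with Benjamini-Hochberg adjustment over the 7719 genes tested and a threshold of 0.05. Standard errors came from the log2 fold change and the F statistic, and 95% intervals are normal intervals from them. The prior degrees of freedom of this fit were infinite. Its p-values, standard errors and intervals thus rest on a spread shared among genes, not on that of each gene's own libraries. A gene under the filter was read from a fit without it. Exact Poisson intervals cover counting error only. The fitting code was tested on simulated counts. All 10 genes were named by rule, each with its counts in every library. An exact permutation test of 2 libraries against 2 can reach no p below 0.333 (two-sided). Chi-square per degree of freedom was 1.61 between the 1-nitropyrene libraries and 1.55 between the controls, so none was taken as a copy. The alternatives tried were limma-voom (limma 3.58.1), DESeq2 1.42.0, its size factors in edgeR, scaling to total counts, omitting the filter or asking for 5 CPM in 2 libraries, and leaving out each library.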

Additional observations from a re-analysis of the deposited data

How the results depend on the processing

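The count of called genes over the whole table, 1332 (747 higher, 585 lower), fell to 315 (238 higher, 77 lower) with the DESeq2 Wald test, which tested fewer genes after its own filter. Total counts gave 406 higher and 1110 lower, so that the balance turned; the cause was not tested. Leaving out 1 library gave 572 to 834 called genes, 382 to 480 higher and 190 to 354 lower, with the lone library of a group assumed to vary like the other group. Of the 10 members 0 were called in any alternative that gave an adjusted p. In the fit as reported 1, Etv5, had an unadjusted p under 0.05, and on total counts Abca3 did too (edgeR, 0.0412). With 1 library left out, of either group, Etv5 did not keep this in every fit, and its log2 fold change ran from 0.91 to 2.44. Members with footprints in every library numbered 4 at a minimum of 1 or 3 counts, and 1, Cebpa, at a minimum of 10. Lamp3 turned from a log2 fold change of -0.27 to 0.12 without control replicate 1, and ranged from -0.56 to 0.12 with 1 library left out; it has 25 counts in all. The summed members differed by 0.659 CPM on total counts and by 0.881 CPM without Cebpa; with both changes, tried together after seeing the data, it was -1.90 CPM. No paired analysis was possible because replicate number 2 alone occurs in both groups. The lists of other alveolar genes and their alternatives were not run, as no ID could be tied to a symbol. Calls at low counts were limited to large changes: among the 200 genes nearest to Etv5 in mean count, no change under 2.94-fold was called.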

Other observations

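The ratio of 2 genes within a library needs no scaling, and comparing it between libraries cancels gene length. The pair Etv5 and Abca3 was chosen after its values were seen, and its ratio is a description with no test. Etv5 footprints numbered 2 and 1.25 per Abca3 footprint in the 1-nitropyrene libraries, against 0.130 and 0.571 in the control libraries, so the groups did not overlap. Etv5 per Cebpa footprint was 0.262 and 0.278 in the 1-nitropyrene libraries, against 0.0508 and 0.190 in the control libraries. Abca3 per Cebpa footprint was 0.131 and 0.222 in the 1-nitropyrene libraries, against 0.390 and 0.333 in the control libraries. Lamp3 per Cebpa footprint was 0.0984 and 0.0926 in the 1-nitropyrene libraries, against 0.153 and 0.119 in the control libraries. The groups did not overlap in any of these 4 ratios, so this is not particular to Etv5 and Abca3. The share over gene pairs at large was not computed, and for single genes it was 57.3% of all genes tested. The ratios share genes and are not independent, and Lamp3 has only 5 to 9 counts per library, so nothing is read from this tally. As a ratio of group totals, Etv5 was 2.91 times as high in 1-nitropyrene cells as in control cells, with an exact 95% counting interval of 1.42 to 6.41, and Abca3 0.557 times as high, with an interval of 0.306 to 0.986. For Cebpa the ratio was 1.17 (interval 0.891 to 1.55) and for Lamp3 0.810 (interval 0.333 to 1.92). All of these intervals leave out the spread between libraries.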
